A study of Mus musculus with 8 samples.

Results

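The ATP-binding cassette (ABC) genes were examined in the RNA of whole 4T1.13 primary tumours. The members were the rows of the count table whose Entrez identifier maps to a mouse symbol of the form Abc followed by a subfamily letter from a to g, a number and, for some, a last letter. This rule found 50 of 27179 genes, of which 36 had enough counts to be tested. Tap1, Tap2 and Cftr belong to the same superfamily but carry other symbols, and are given only as context. 4T1.13 is a metastatic mammary carcinoma line of BALB/c origin. There were 4 tumours of 4T1.13-VC cells and 4 of 4T1.13-miR-21-KD cells, grown in the mammary fat pad of female BALB/c mice that were 7 to 8 weeks old when injected. Both lines carried an mCherry and hygromycin resistance lentiviral vector and were pools of 6 clones each. In the miR-21-KD line the H1 promoter of the vector drives an RNA that binds and withholds mature miR-21. The VC (vector control) line expresses a scrambled RNA in its place. The labels give an injection of 100000 cells and removal on day 14, and the methods of the paper day 12, with miR-21-KD tumours starting to regress in both descriptions.

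The count totals of the tumours ran from 12134849 to 13592695. Values are given in CPM, read counts divided by the scaled library size in units of 1000000, and a count of 0 allows up to 3 counts, which is 0.221 to 0.245 CPM (counting error only). Mir21a had 0 counts in all 8 tumours, and sequestration need not lower the RNA, so the table gives no check of the knockdown. The tumours are mixtures, in which fewer cells of a type and less RNA per cell cannot be told apart. The paper calls the tumours of a group biological replicates, and p-values measure the spread between them. Marker genes of several other cell types differed between the groups, and none of those listed was at 0 in all tumours. Over all tested genes 19.6% rose and 19.5% fell, and the counts for endothelium and mast cells are near or under that share. Of the 12 macrophage and monocyte genes listed, 10 were higher in miR-21-KD tumours and none lower, and the same count was 7 of 10 for T cells, 5 of 7 for fibroblasts and pericytes, 7 of 7 for adipocytes, 1 of 9 for endothelium, 1 of 5 for mast cells and 0 of 4 for B cells (edgeR, also 0 at an unadjusted p of 0.05, with DESeq2 and with limma-voom). Ptprc, which marks leukocytes, was higher too. By flow cytometry of tumours of these lines, the paper found more leukocytes and T cells but fewer monocytes under miR-21-KD. Of 10 mammary epithelial genes 7 were higher and 1, Krt18, lower, while their summed level, which in VC tumours was mostly Krt8 and Krt18, ran from 1299 to 2222 CPM in VC and from 881 to 1908 CPM in miR-21-KD tumours. Of 5 tested squamous genes 3 were higher and 1 lower, while the 1 tested gene each of skeletal muscle and erythroid cells did not pass. VC tumour 4 stood apart in its summed B cell genes, with 141 CPM against 1.76 to 4.94 CPM in the other VC tumours, and miR-21-KD tumour 4 did so with 60.4 CPM against 8.52 to 13.1 CPM in the other miR-21-KD tumours.

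ABC proteins share a nucleotide-binding domain that uses ATP to move a substrate across a membrane. Subfamilies A and G handle mainly lipids and sterols, several members of B and C export drugs and conjugated metabolites, subfamily D brings fatty acyl-CoA into peroxisomes, and members of E and F have the domain but no membrane part and act in translation. In tumours the family is best known for drug resistance, and in macrophages for the release of cholesterol.

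The microRNA that was sequestered is shown with its seed (bases 2 to 8) in capitals, followed by the stretches of ABC transcripts that hold a match to that seed. The microRNA is from RefSeq (GRCm38.p6), at chr11:86584120-86584141 on the minus strand, and the matches come from 3′ UTRs of GENCODE vM21 on GRCm38.
mmu-miR-21a-5p: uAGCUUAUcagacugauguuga
Abcc4: aagcccattcattttATAAGCTg
Abcg2: ttgtcccccttactcATAAGCTc
The capitals in the lower sequences mark ATAAGCT, the match to the seed. In Abcc4 it starts at base 316 of a 3′ UTR of 1641 bases, and the stretch lies at chr14:118484010-118484032 on the minus strand. In Abcg2 it starts at base 818 of 3286, and the stretch lies at chr6:58693193-58693215 on the plus strand. This is beyond the end of Abcg2 in RefSeq (58692451), so the match is in the longer GENCODE 3′ UTR and outside the gene as RefSeq gives it. They were the only ABC genes among the 36 tested with ATAAGCT in the longest annotated 3′ UTR, which is 5.56%, while 7.70% of 13369 tested genes with a 3′ UTR had it. Neither gene passed the test of miR-21-KD against VC. Abcc4, which exports cyclic nucleotides and other organic anions, had 27.5, 25.9, 27.0 and 27.5 CPM in VC and 32.3, 28.1, 25.4 and 25.3 CPM in miR-21-KD tumours 1 to 4 (log2 fold change 0.04 ± 0.10 SE, edgeR adjusted p = 0.771). The values of Abcg2 are given with the drug transporters.

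Which members differed between miR-21-KD and VC tumours was tested with edgeR on the whole table. Of the 36 members tested, 12 rose, 2 fell and 22 did not pass an adjusted p of 0.05. The share called was 38.9%, and 39.1% of all 14382 tested genes were called, so the family as a whole was called about as often as other genes. By direction, 33.3% of the members rose against a background of 19.6%, and 5.56% fell against a background of 19.5%. The median log2 fold change was 0.06 over the members and -0.01 over all tested genes. These shares are descriptions, since the members were not compared with other genes in a test. Without overlap between the groups were 8 members that were higher and 3 that were lower in miR-21-KD tumours, together 30.6% of the 36, and 35.2% of all tested genes had no overlap. The rises were mostly in lipid transporters, with 7 of the 11 tested, against 2 of the 8 tested drug transporters, 1 of the 3 peroxisomal transporters and 0 of the 4 mitochondrial transporters. By subfamily, 6 of 11 tested genes rose in A, 1 of 7 in B, 3 of 7 in C, 1 of 4 in D and 1 of 3 in G, and 0 of the 4 in E and F. The number that rose was 7 without VC tumour 2, without VC tumour 3 or without miR-21-KD tumour 4, and 7 members kept their call whichever tumour was left out. These were Abca1, Abca2, Abca5, Abca7, Abca8a, Abca9 and Abcc8. Abcc8 had at most 2 counts in any VC tumour and reached the minimum count of 10 set for testing only in miR-21-KD tumours. Abca6, also among the 12 rises, had 3, 3 and 7 counts in VC tumours 2 to 4. The calls of Abcc8 and Abca6 are thus descriptions of genes kept mainly through the group where they are high.

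**Figure D1:**
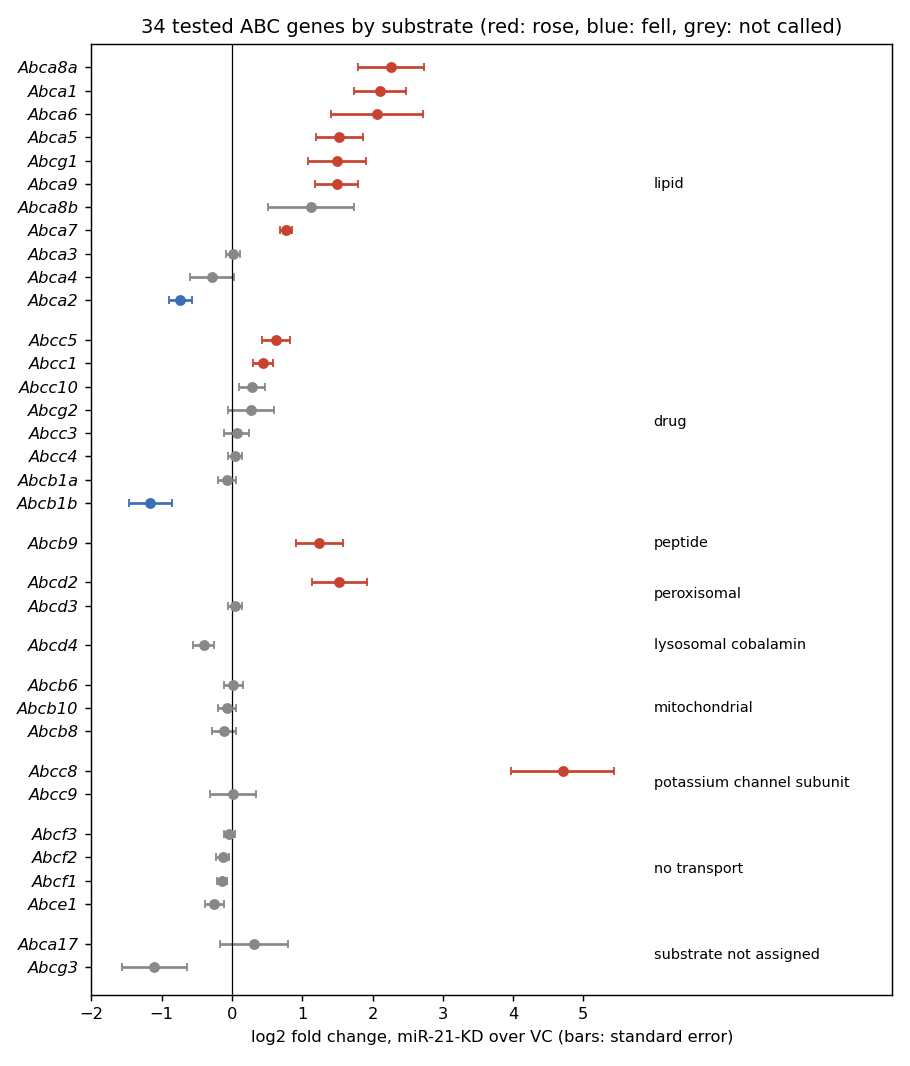
The log2 fold change of miR-21-KD over VC tumours is plotted on the horizontal axis for 34 of the 36 tested ABC genes, grouped by substrate, with bars for the standard error. Red points rose, blue points fell and grey points did not pass an adjusted p of 0.05, and most of the red points are lipid transporters.

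Abca1 (Entrez 11303, chr4:53030789-53159988), which loads cholesterol and phospholipid onto apolipoproteins at the plasma membrane, rose the most in absolute level. It had 175, 82.3, 77.3 and 145 CPM in VC tumours 1 to 4 and 797, 292, 453 and 521 CPM in miR-21-KD tumours 1 to 4. The groups did not overlap, and miR-21-KD tumour 1 was the highest. Mean levels were 120.0 ± 48.1 CPM for VC and 516 ± 211 CPM for miR-21-KD (SD, n = 4), and the log2 fold change was 2.10 (SE 0.37, edgeR adjusted p = 0.00693). Per kilobase of exon, its mean level went from 11.6 to 49.8 CPM, which moved it from rank 7 to rank 1 of the 36 tested members. Abcg1 (Entrez 11307, chr17:31057694-31117984), which passes cholesterol on to lipoprotein particles, had 40.3, 26.4, 28.1 and 79.5 CPM in VC and 184, 78.2, 84.1 and 146 CPM in miR-21-KD tumours. VC tumour 4 lay just above miR-21-KD tumour 2, so the groups overlapped. Mean levels were 43.6 ± 24.7 CPM for VC and 123 ± 51.0 CPM for miR-21-KD (SD, n = 4), and the log2 fold change was 1.5 (SE 0.41, edgeR adjusted p = 0.0231). Its adjusted p was between 0.0580 and 0.0652 without VC tumour 2, VC tumour 3, miR-21-KD tumour 1 or miR-21-KD tumour 4.

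Both cholesterol exporters are strongly expressed by lipid-loaded macrophages, and the RNA of the macrophage and monocyte genes was higher as well. The paper, by contrast, reports fewer monocytes in miR-21-KD tumours of this model by flow cytometry. That is a count of cells by surface proteins, which is unlike the RNA levels here. The summed level of the 12 macrophage and monocyte genes was 3793 to 5846 CPM in VC and 6993 to 11821 CPM in miR-21-KD tumours, a ratio of means of 2.04 against 4.30 for Abca1 and 2.82 for Abcg1. The part of macrophages and monocytes in these results was not tested. The order of the tumours was partly shared, since miR-21-KD tumour 2 was the lowest and miR-21-KD tumour 1 the highest of their group in the list, in Abca1 and in Abcg1. Among VC tumours, the list and Abcg1 were highest in tumour 4 and Abca1 in tumour 1. The fibroblast, squamous and endothelial lists had the same miR-21-KD tumours at their ends, so this order was not particular to macrophage genes.

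**Figure D2:**
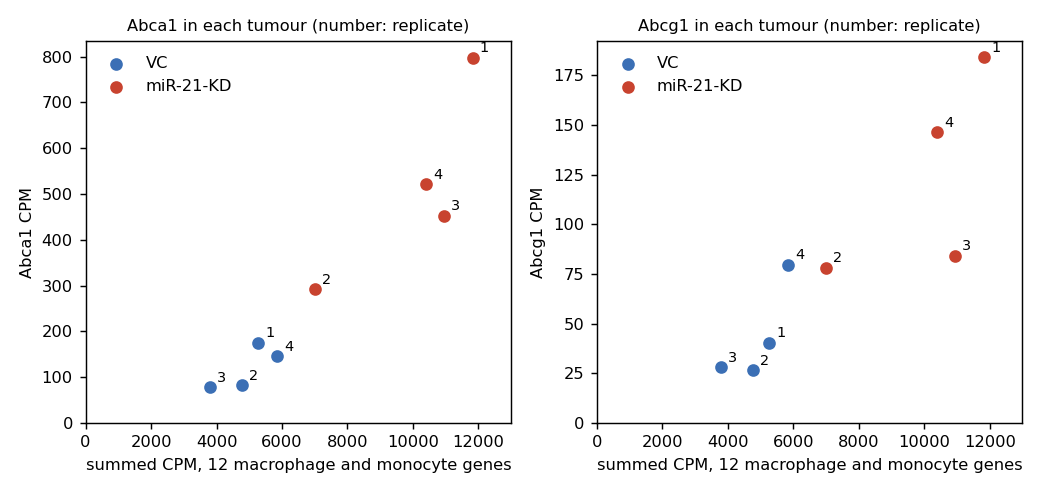
CPM of Abca1 (left) and Abcg1 (right) is plotted against the summed CPM of the 12 macrophage and monocyte genes, with 1 point per tumour and its replicate number. All 4 miR-21-KD tumours lie to the right of all 4 VC tumours, and in Abcg1 VC tumour 4 reaches the level of miR-21-KD tumour 2.

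Abca1 and Abcg1 are textbook targets of the liver X receptors, nuclear receptors that bind oxidised sterols together with retinoid X receptors. In a list of 16 genes of sterol handling and these receptors, 7 rose, 2 fell and the list had a median log2 fold change of 0.37, against backgrounds of 19.6% and 19.5% of all tested genes. Those of smallest adjusted p were Pltp, a phospholipid transfer protein (log2 fold change 1.17), Npc1, which moves cholesterol out of lysosomes (0.85), and Lpcat3, which remodels phospholipids (0.46). The 2 that fell were Scarb1 (log2 fold change -0.28) and Arl4c (-0.32). Nr1h3, the receptor LXR alpha, was picked after its values were seen. It went from 12.2 ± 6.33 to 20.3 ± 5.27 CPM (SD, n = 4 each) without passing (edgeR adjusted p = 0.107), and Nr1h2, LXR beta, also looked up afterwards, had an adjusted p of 0.415 from edgeR. In the Abca1 promoter of RefSeq (GRCm38.p6, from 250 bases before to 50 after the start), a direct repeat with 4 bases between its arms, as these receptors bind, was found on the opposite strand, 67 bases before the start used in that table and inside the gene as annotated from its outermost start. It is shown on the strand of the gene, with the match in capitals.
Abca1 promoter, chr4:53159943-53159967, minus strand: gcgttTGACCGGTAGTAACCccggc
The search was for GGTNA, any 5 bases and GGTCA, on both strands, a form set after the Abca1 promoter had been read. Its presence in Abca1 was thus fixed by that choice and is no support for binding. It is in 0.207% of all 32851 promoters of the table and in no other of the 38 members with one. The E-box CACGTG, which reads the same on both strands and lies 147 bases before the start in Abca1, clear of the repeat, was in 6 of the 45 promoters of these members (Abca1, Abca15, Abca8a, Abca8b, Abcc4 and Abcf1) and in 7.15% of all promoters.

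Abca5, Abca6, Abca8a, Abca8b and Abca9 lie side by side on chromosome 11, within 406 kb (chr11:109932206-110337723), with no other protein-coding gene between them in RefSeq. They are close relatives within subfamily A, and lipid transport is their proposed role. All but Abca8b rose in miR-21-KD tumours. Abca9 (Entrez 217262) had the most reads, with 28.8, 20.4, 12.4 and 19.0 CPM in VC and 82.2, 35.3, 60.1 and 49.1 CPM in miR-21-KD tumours, without overlap. Its log2 fold change was 1.49 (SE 0.31, edgeR adjusted p = 0.01). Abca8a had 4.72, 2.39, 1.02 and 3.11 CPM in VC and 18.3, 6.37, 12.8 and 16.9 CPM in miR-21-KD tumours (log2 fold change 2.27 ± 0.47 SE, edgeR adjusted p = 0.0102). Abca5 had 4.65, 3.19, 2.68 and 2.62 CPM in VC and 13.7, 4.95, 11.2 and 8.14 CPM in miR-21-KD tumours (log2 fold change 1.53 ± 0.34 SE, edgeR adjusted p = 0.0121). Neither Abca8a nor Abca5 overlapped between the groups, although miR-21-KD tumour 2 came close to VC tumour 1 in Abca5. Abca6 was low throughout, with 1.25, 0.239, 0.236 and 0.572 CPM in VC and 4.61, 0.786, 2.27 and 2.19 CPM in miR-21-KD tumours, and VC tumour 1 lay above miR-21-KD tumour 2. Its log2 fold change was 2.06 (SE 0.65, edgeR adjusted p = 0.0362). The call for Abca6 was lost (adjusted p of 0.0632 to 0.0960) without VC tumour 2, 3 or 4 or without miR-21-KD tumour 1, 3 or 4, and without VC tumour 1 its log2 fold change was 2.79. Abca8b had 0.315 to 1.62 CPM in VC and 0.629 to 3.29 CPM in miR-21-KD tumours and did not pass (log2 fold change 1.12 ± 0.61 SE, edgeR adjusted p = 0.166), but it was called higher with quality weights in limma-voom (adjusted p = 0.0161). Abca8a and Abca8b are close paralogs, so the split of their reads by the counting is uncertain.

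The summed level of the 5 neighbours was 16.6 to 41.1 CPM in VC and 48.0 to 121 CPM in miR-21-KD tumours. In all 5 genes miR-21-KD tumour 2 was the lowest of its group and VC tumour 1 the highest of its group. The list of fibroblast and pericyte genes moved in the same direction, with summed levels of 1144 to 2551 CPM in VC and 3703 to 7883 CPM in miR-21-KD tumours. Col1a1 made up most of this sum, with a mean of 1257 of 1905 CPM in VC and 3503 of 4993 CPM in miR-21-KD tumours. Pdgfra and Pdgfrb did not pass, and Pdgfra had a lower mean in miR-21-KD (178 CPM) than in VC tumours (228 CPM). In the sum, VC tumour 1 was the highest and miR-21-KD tumour 2 the lowest of its group as well. The adipocyte list went from 121 to 439 CPM in VC to 633 to 1767 CPM in miR-21-KD tumours, with the same tumours at those ends. This order was not particular to those lists, since the squamous list (10.5 to 77.8 CPM in VC and 43.8 to 273 CPM in miR-21-KD tumours) and the endothelial list (450.3 to 754 and 637 to 879 CPM) also had VC tumour 1 highest and miR-21-KD tumour 2 lowest of their groups. The part of these cell types was not tested.

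**Figure D3:**
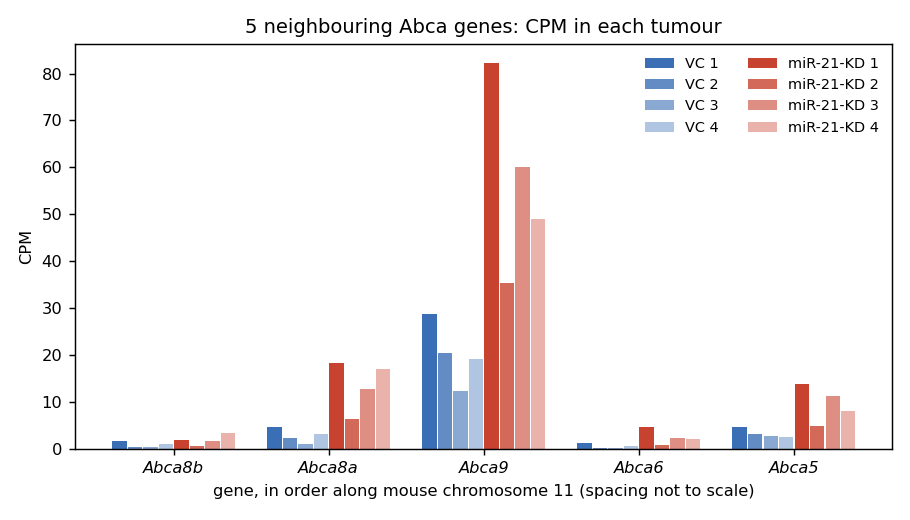
Bars give the CPM of the 5 neighbouring Abca genes in each of the 8 tumours (blue for VC, red for miR-21-KD, lighter shades for higher replicate numbers), in their order along chromosome 11. Abca9 is the highest of them in every tumour, and miR-21-KD tumour 2 has the shortest red bar in each gene.

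Of the other lipid transporters, Abca7 (Entrez 27403, chr10:79996453-80015572), a phospholipid exporter close to Abca1 in sequence, had the smallest SE of the lipid transporters. It had 30.8, 28.4, 30.3 and 26.1 CPM in VC and 47.2, 51.6, 50.6 and 48.2 CPM in miR-21-KD tumours, far apart relative to the spread. This gave a log2 fold change of 0.77 (SE 0.08, edgeR adjusted p = 0.00501). Abca2 (Entrez 11305, chr2:25428599-25448544), a transporter of endosomes and lysosomes linked to sphingolipid and cholesterol handling, fell. It had 80.9, 121, 119 and 79.5 CPM in VC and 60.9, 64.5, 62.3 and 53.4 CPM in miR-21-KD tumours, without overlap. On the log2 scale the fold change was -0.73 (SE 0.16, edgeR adjusted p = 0.0117). Abca3, known for loading surfactant lipid into lamellar bodies, averaged 91.5 ± 9.70 CPM in VC tumours and 92.4 ± 7.80 CPM under miR-21-KD (SD, n = 4), and its log2 fold change of 0.01 had an SE of 0.10 (edgeR adjusted p = 0.918). Abca4, the retinoid transporter of photoreceptors, was low (1.10 to 2.92 CPM) and did not pass.

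**Figure D4:**
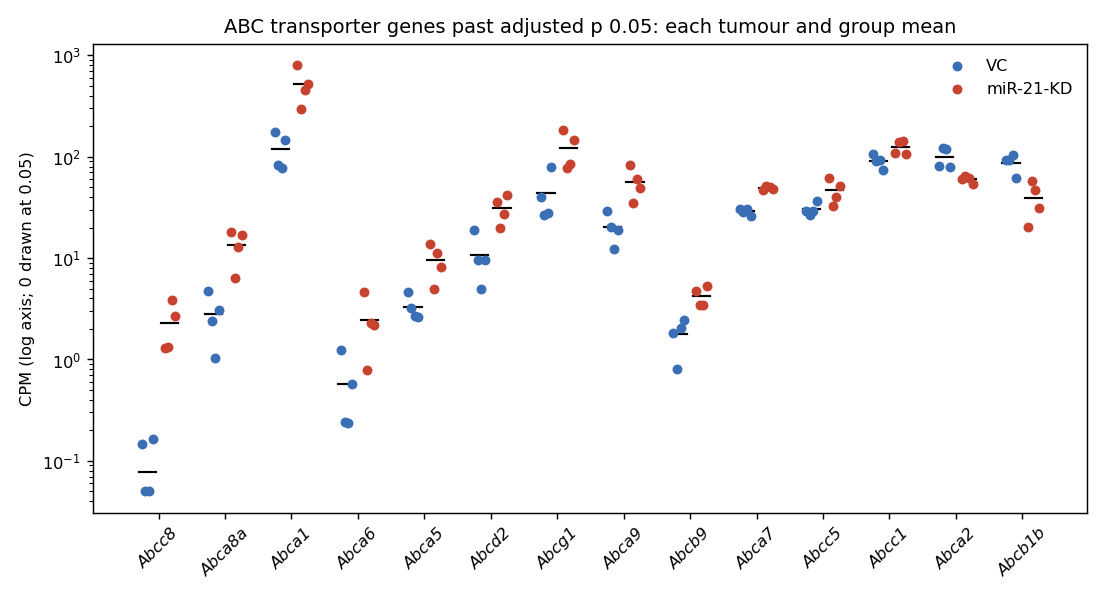
CPM on a log axis is plotted for the 14 ABC genes past an adjusted p of 0.05, with 1 point per tumour (blue VC, red miR-21-KD), a line for the group mean, and values of 0 drawn at 0.05. Genes run from the largest rise (Abcc8) to the largest fall (Abcb1b), and the points of Abca7 lie close together within each group.

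Among the drug transporters, the paired mouse genes of P-glycoprotein, Abcb1a and Abcb1b, differed in their values. Abcb1b (Entrez 18669, chr5:8798147-8866314) fell, with 92.7, 92.1, 103 and 61.9 CPM in VC and 20.5, 57.9, 47.3 and 30.8 CPM in miR-21-KD tumours. The groups did not overlap, with VC tumour 4 just above miR-21-KD tumour 2. Mean levels were 87.5 ± 17.8 CPM for VC and 39.1 ± 16.7 CPM for miR-21-KD (SD, n = 4), and the log2 fold change was -1.16 (SE 0.31, edgeR adjusted p = 0.02). Its adjusted p was 0.0564 to 0.0592 without VC tumour 3 or miR-21-KD tumour 4. The epithelial markers of highest mean level, the keratins Krt18 and Krt8, which were picked after their values were seen, were also at lower means in miR-21-KD tumours, whereas 7 of the other 8 genes of that list rose. Krt18 fell from 1022 ± 243 to 460 ± 216 CPM (SD, n = 4 each, edgeR adjusted p = 0.0374), and Krt8 had 808 ± 173 and 439 ± 213 CPM without passing (SD, n = 4 each, edgeR adjusted p = 0.0870). As in Abcb1b, VC tumour 4 was the lowest VC tumour in both keratins, and the miR-21-KD tumours ran upwards in the order 1, 4, 3 and 2. That order was not particular to these genes, since Abce1 had it too, with VC tumour 4 lowest as well. The part of the epithelial genes in the fall of Abcb1b was not tested. Abcb1a (Entrez 18671, chr5:8567091-8748575) had 16.2, 14.9, 13.8 and 17.7 CPM in VC and 14.1, 17, 15.2 and 13.5 CPM in miR-21-KD tumours, overlapping throughout (log2 fold change -0.07 ± 0.13 SE, edgeR adjusted p = 0.692). Abcb1b made up 85.1%, 86.1%, 88.2% and 77.7% of the CPM of the pair in VC tumours 1 to 4 and 59.3%, 77.3%, 75.7% and 69.5% of it in miR-21-KD tumours 1 to 4, a description without a test, not corrected for gene length. These shares did not overlap, although VC tumour 4 and miR-21-KD tumour 2 were close. The pair are close paralogs, and reads that fit both could have been exchanged or left out by the counting.

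**Figure D5:**
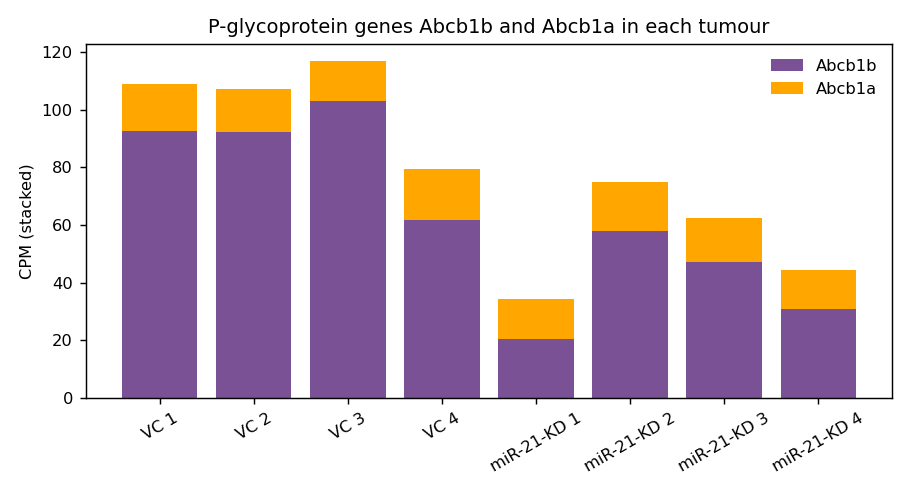
Stacked bars give the CPM of Abcb1b (purple) and Abcb1a (orange) in each tumour. The orange part stays between 13.5 and 17.7 CPM in all 8 tumours, while the purple part is shorter in each miR-21-KD tumour than in any VC tumour.

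Abcc1 (Entrez 17250, chr16:14361453-14474878), the multidrug resistance protein that exports glutathione conjugates and leukotriene C4, had 106, 90.8, 93.5 and 74.2 CPM in VC and 108, 139, 143 and 106 CPM in miR-21-KD tumours. VC tumour 1 lay between miR-21-KD tumours 4 and 1, so the groups overlapped. Its log2 fold change was 0.44 (SE 0.14, edgeR adjusted p = 0.0384). Abcc5 (Entrez 27416), an exporter of cyclic nucleotides, had 29.2, 26.3, 28.8 and 36.8 CPM in VC and 61.6, 32.9, 40.3 and 51.9 CPM in miR-21-KD tumours, again with overlap. This gave a log2 fold change of 0.62 (SE 0.20, edgeR adjusted p = 0.0368). Abcc1 lost its call without VC tumour 2, 3 or 4 or miR-21-KD tumour 2 or 3 (adjusted p of 0.0717 to 0.101), and also without a filter on low counts (0.0644). Abcc5 lost it without VC tumour 1, 2 or 3 or miR-21-KD tumour 1, 3 or 4 (0.0523 to 0.0960). Abcg2, the breast cancer resistance protein, had 49.1, 25.9, 35.3 and 14.3 CPM in VC and 36.3, 48.0, 31.7 and 34.0 CPM in miR-21-KD tumours. The VC tumours spread more widely than the miR-21-KD tumours and enclosed all of them (log2 fold change 0.27 ± 0.33 SE, edgeR adjusted p = 0.537). Abcc3, which exports bile acid and glucuronide conjugates, and Abcc10 did not pass, with log2 fold changes of 0.07 and 0.29. In a list of 19 glutathione and xenobiotic genes, 17 were tested and 5 were higher and 3 lower, with a median log2 fold change of -0.01. For comparison, 19.6% of the 14382 genes tested were called higher and 19.5% lower, and the list was not compared with them in a test. Ggt1, which cleaves extracellular glutathione, rose by 1.88 on the log2 scale, Mgst2, a microsomal glutathione transferase, fell by 1.62, and Mgst1, another, rose by 1.14.

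Abcb9 (Entrez 56325, chr5:124061857-124095955) carries peptides into lysosomes and is a relative of the antigen peptide transporter. It had 1.84, 0.798, 2.05 and 2.45 CPM in VC and 4.77, 3.46, 3.41 and 5.32 CPM in miR-21-KD tumours, without overlap and at a low level. On the log2 scale the fold change was 1.24 (SE 0.34, edgeR adjusted p = 0.0216), and the call was lost without VC tumour 3 or miR-21-KD tumour 1 or 4 (adjusted p of 0.0514 to 0.0624). Tap1 and Tap2, which form the antigen peptide transporter of the endoplasmic reticulum, did not pass. Tap1 went from 221 ± 85.3 to 290.0 ± 35.6 CPM (SD, n = 4 each, edgeR adjusted p = 0.238) and Tap2 from 113 ± 29.2 to 126 ± 8.45 CPM (SD, n = 4 each, edgeR adjusted p = 0.483). Of 14 peptide loading genes including these, none rose and 2 fell, Pdia3 by 0.47 and Psme1 by 0.50 on the log2 scale, and also none rose at an unadjusted p of 0.05 in edgeR or with DESeq2 or limma-voom. The shares over all tested genes were 19.6% higher and 19.5% lower.

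Of the 3 peroxisomal transporters, 1 rose. Abcd2 (Entrez 26874, chr15:91145871-91192007), which takes up very long chain and polyunsaturated acyl-CoA and is prominent in adipose tissue and brain, had 19.0, 9.57, 4.97 and 9.65 CPM in VC and 35.6, 19.7, 27.4 and 42.0 CPM in miR-21-KD tumours. VC tumour 1 came close to miR-21-KD tumour 2, without overlap. Its log2 fold change was 1.53 (SE 0.39, edgeR adjusted p = 0.0180), and the call was lost without VC tumour 2 (adjusted p = 0.0504 from edgeR) or miR-21-KD tumour 4 (0.0521). Abcd3, which takes up branched-chain and dicarboxylic acyl-CoA, had 75.2, 72.1, 65.8 and 63.3 CPM in VC and 75.7, 61.6, 77.0 and 70.8 CPM in miR-21-KD tumours (log2 fold change 0.04 ± 0.10 SE, edgeR adjusted p = 0.737). The adipocyte genes, whose summed levels are given above, were higher in miR-21-KD tumours in 7 of 7 cases, and their part in the rise of Abcd2 was not tested. Among 26 other peroxisome genes, of which 25 were tested, 5 were higher and 5 lower, near the backgrounds of 19.6% and 19.5% of all tested genes. Their median log2 fold change was -0.04. Pex19, a peroxisome import factor, fell by 0.34 on the log2 scale, Amacr, an epimerase of branched fatty acids, rose by 0.72, and Ehhadh, an enzyme of peroxisomal beta-oxidation, rose by 1.21. Abcd4, which works in lysosomes in the release of cobalamin, did not pass (log2 fold change -0.40 ± 0.15 SE, edgeR adjusted p = 0.0583), although it did without VC tumour 4 (0.0135) or miR-21-KD tumour 2 (0.0410), and with quality weights in limma-voom (0.00900).

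None of the 4 mitochondrial transporters passed in edgeR, none had an unadjusted p under 0.05, and none passed with DESeq2 or limma-voom. Abcb8, Abcb10, needed for haem synthesis in red cells, and Abcb6, a porphyrin transporter, had log2 fold changes of -0.11, -0.07 and 0.02, with standard errors of 0.13 to 0.17 and adjusted p of 0.619 to 0.919. Of 20 genes of haem and iron-sulphur synthesis, 19 were tested and 2 were higher and 3 lower (median log2 fold change 0.03). Both counts are under the backgrounds of 19.6% and 19.5% of all tested genes. Slc25a37, the mitochondrial iron importer, fell by 0.53 on the log2 scale, and the haem enzymes Cpox and Alas1 rose by 0.60 and 0.47.

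Abcc8 and Abcc9 are not exporters but regulatory subunits (sulphonylurea receptors) of ATP-sensitive potassium channels. Abcc8 (Entrez 20927, chr7:46104523-46180039), the form known from pancreatic beta cells and neurons, had 0.147, 0, 0 and 0.163 CPM in VC and 1.29, 1.34, 3.90 and 2.66 CPM in miR-21-KD tumours. The VC tumours held 4 counts in all and at most 2 each, and the miR-21-KD tumours 115 counts in all and 16 to 48 each. The depth-scaled ratio of the sums was 29.2, with an exact 95% interval from 11.1 to 109 that covers counting error only. The fitted log2 fold change of 4.71 (SE 0.73, edgeR adjusted p = 0.00573) depends on the handling of the near-zero VC counts. Abcc8 reached the minimum count of 10 set for testing only in the miR-21-KD tumours, where it is high, so its call is given as a description. Kcnj11, the channel pore that pairs with Abcc8 in beta cells, was too low to be tested, with 4 counts over all VC tumours and 40 over all miR-21-KD tumours, a ratio of 10.2 (exact 95% interval 3.67 to 39.1, counting error only). Even in miR-21-KD tumours, Abcc8 stayed at 0.284 CPM per kilobase. Abcc9 (Entrez 20928), the form of muscle and pericytes, had 28.3, 20.1, 12.5 and 26.0 CPM in VC and 35.6, 18.7, 17.8 and 15.6 CPM in miR-21-KD tumours. The groups overlapped, with miR-21-KD tumour 1 above every VC tumour and VC tumour 3 below every miR-21-KD tumour (log2 fold change 0.01 ± 0.32 SE, edgeR adjusted p = 0.980). Its pore partner Kcnj8 had a log2 fold change of -0.84 that did not pass (edgeR adjusted p = 0.0673).

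Abce1, Abcf1, Abcf2 and Abcf3 have the ATP-binding domains without a membrane part. Abce1 splits ribosomes after termination, and the Abcf proteins act in initiation and stress signalling of translation. In VC tumours they held the first 4 ranks of the tested members per kilobase of exon, at 39.3 (Abcf2), 33.0 (Abcf1), 30.9 (Abce1) and 20.2 (Abcf3) CPM per kilobase. None passed in edgeR, none had an unadjusted p under 0.05, and none passed with DESeq2 or limma-voom, with log2 fold changes from -0.25 (Abce1) to -0.04 (Abcf3). With quality weights in limma-voom, however, Abce1 was called lower (adjusted p = 0.0144 from limma). The values of Abcf1 did not overlap, with 139 to 154 CPM in VC and 126 to 137 CPM in miR-21-KD tumours (log2 fold change -0.14 ± 0.07 SE, edgeR adjusted p = 0.146). Abce1 had 180 to 189 CPM in VC, a narrow range, and 129.7, 203, 152 and 140.1 CPM in miR-21-KD tumours, of which tumour 2 lay above all VC tumours. Without that tumour its log2 fold change was -0.41 (edgeR adjusted p = 0.00601). Of 8 partner genes in translation, 2 fell in edgeR, Hbs1l, a ribosome rescue factor, by 0.39 and Eif2s1, an initiation factor subunit, by 0.38 on the log2 scale, and none rose, also at an unadjusted p of 0.05 or with DESeq2 or limma-voom. The background was 19.5% lower and 19.6% higher over all tested genes.

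The 14 members that were not tested had at most 13 counts in any tumour, and Abca15, Abca16 and Abcb5 had none in any tumour. They include the canalicular transporters Abcb4, Abcb11 and Abcc2, the intestinal sterol exporters Abcg5 and Abcg8, and Abca12 and Abca13. Of these, Abcb11, the bile salt export pump, had 0, 1, 0 and 1 counts in VC and 3, 0, 12 and 9 counts in miR-21-KD tumours, which did not pass even without the filter (edgeR adjusted p = 0.0593). In that fit 11 of the 14 had a value and 1 was called higher, Abca14, with 0 counts in each VC tumour and 1, 2, 2 and 2 counts in miR-21-KD tumours (edgeR adjusted p = 0.0350), all under the 3 counts that a count of 0 allows. Abca17 and Abcg3, with no substrate assigned here, were tested without passing (log2 fold changes 0.31 and -1.10, adjusted p of 0.621 and 0.0897 from edgeR). Over the 22 tested members that did not pass, log2 fold changes ran from -1.10 (Abcg3) to 1.12 (Abca8b), and both of these ends were genes of low level and wide spread.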

How the data were processed

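RNA sequencing of 8 whole primary tumours, 4 VC and 4 miR-21-KD, was analysed. The deposited values are raw read counts by Entrez gene, with no normalization. The submitters' processing notes list Subread, featureCounts, edgeR, limma and mm10. Versions, strand setting and multi-mapping rule are not given in the sources used here. Symbols and positions came from RefSeq GRCm38.p6, the same build, and matched 25275 of 27179 identifiers. Exon lengths, 3′ UTRs and transcripts came from GENCODE vM21.

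Genes were kept by filterByExpr (minimum count 10 and total 15). This kept 14382 genes, which hold 99.9% of the counts. They were scaled with TMM and tested over all genes in edgeR 4.0.16 (R 4.3.3) with the robust quasi-likelihood test and Benjamini-Hochberg adjustment at 0.05. The standard error was obtained from the log2 fold change and the F statistic. The step was tested on simulated data. Alternatives used DESeq2 1.42.0, limma 3.58.1, other scalings, filters and thresholds, and each tumour left out. The members, classes and lists were chosen with earlier results of these data known. Any member could be named, except 2 tested members that are counted but not reported here. Members past the threshold, and Abca1, Abcg1, Abca7, Abcb1a, Abcb1b, Abcc1, Abcg2, Abcd2, Abcd3 and Abcb9 whatever their result, have each tumour's value, and from each context list up to 3 genes of smallest adjusted p were named. Abcc4, Abcc9, Abce1, Abcb11, Abca14, Kcnj11, Nr1h2, Nr1h3, Krt8 and Krt18 were given in detail after their values were seen. Scarb1, Arl4c, Col1a1, Pdgfra and Pdgfrb were also named after their values were seen.

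Both groups carry replicate numbers 1 to 4 in the labels. After removal of group means, the correlations across genes of same-numbered tumours were 0.175 to 0.421 (mean 0.311), and those of the 12 remaining combinations ran from -0.393 to 0.393 (mean -0.105), so that some exceeded same-number values. All 4 same-number values were above 0.1, so the number was used as a block in an alternative.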

Additional observations from a re-analysis of the deposited data

Results flagged for a closer look

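In 72 groups of 4 values (36 genes in both groups), a single tumour stood far from the other 3 by Dixon's criterion in 2 cases, and chance gives about 1 in 20. Abcc9 had 35.6 CPM in miR-21-KD tumour 1 against 15.6 to 18.7 CPM in the other miR-21-KD tumours. Abcf3 had 67.7 CPM in VC tumour 1 against 72.7 to 73.6 CPM in the other VC tumours. Neither gene passed the test between the groups.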

How the results depend on the processing

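The 12 ABC genes that rose were called in the same number, and the same genes, with DESeq2, library size alone, upper-quartile scaling, limma-voom and the replicate block, under all of which 2 genes fell. The block changed no call of a member. Without a filter 12 rose as well, of which 11 were shared (Abcc1 was lost and Abca14 gained). With at least 10 counts in every tumour 10 rose, and Abca6 and Abcc8 were not tested in that setting. A test for a change above 1.5-fold left 3 higher and 0 lower (edgeR), and an adjusted p under 0.01 also left 3 and 0, where 3.77% and 9.92% of all tested genes were called. With quality weights in limma-voom 13 rose (Abca8b gained) and 4 fell (Abcd4 and Abce1 gained), with 57% of all tested genes called. With each tumour left out in turn, 7 to 11 genes rose and 1 to 4 fell. The fall count was 1 without VC replicate 3 or miR-21-KD replicate 4, and 4 without miR-21-KD replicate 2. No called member changed direction under any alternative run. Over the same omissions, 20.1% to 46.8% of all tested genes were called. The filter on low counts left 14 members untested.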
